A study of Mus musculus with 16 samples.

Results

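Genes that build and supply cilia were examined in sorted cells of the mouse olfactory mucosa. They were all genes whose annotated symbol begins with Ift, Bbs, Nphp, Dnah, Dnai, Dnal or Tekt and a number or with Rsph, together with Spag6, Spag16, Spag17, Ccdc39, Ccdc40, Ccdc113, Foxj1 and Mcidas. The array annotation held 53 such genes of 19505, each on 1 feature. The Ift, Bbs and Nphp families gave 23 transport genes and the others 30 genes of the motile axoneme, Mcidas included. Foxj1, Ccdc40, the Dnai genes and other members without an annotated feature were not analysed here.

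Cilia are built and maintained by intraflagellar transport, in which trains of IFT-B and IFT-A protein complexes, encoded by the Ift genes, are carried along the axoneme by kinesin and dynein motors. The BBSome, a cargo adaptor made of Bbs proteins, rides on these trains and moves membrane proteins, and the nephrocystins of the Nphp family sit in the transition zone at the base of the cilium. Olfactory sensory neurons carry long sensory cilia that hold the odorant receptors and do not beat, whereas beating cilia of respiratory-type epithelium need axonemal dynein arms, radial spokes, tektins and the central pair apparatus.

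The arrays came from S100a5-tauGFP mice on a C57BL/6 background, in which green fluorescent protein reports S100a5, an activity-dependent gene of olfactory sensory neurons. All 24 animals, of both sexes and 7 to 12 weeks old, spent 40 h singly in chambers with clean air flowing at 3.1 L/min. From 26 h on they received pulses of 10 s every 20 min, of whiskey lactone in the odor group and of filtered air alone in the vehicle group. Mucosa of 3 mice was pooled, with 4 pools per treatment, and each pool was sorted into 2 fluorescence fractions, which gave 4 groups of 4 arrays: vehicle titled GFP-, vehicle titled GFP+, odor titled GFP- and odor titled GFP+. The sample titles and the cell type field name opposite fractions in all 16 arrays. Fractions are therefore called by their titles, and every signed fraction difference is titled GFP+ minus titled GFP- and would change sign if the cell type field were followed. The reporter gene itself was lower in the arrays titled GFP+. The log2 signal of S100a5 was 15.28 ± 0.27 (SD, n = 4) against 16.51 ± 0.19 in vehicle pools and 15.24 ± 0.30 against 16.58 ± 0.13 in odor pools. The mature neuron gene Omp stood at 18.54 to 18.68 in all 4 group means. It is 1 of 16 mature neuron genes examined, with median log2 differences of -0.32 in vehicle and -0.24 in odor pools. The median of all genes was -0.14 and -0.15.

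Ciliary genes of many animals carry the X-box in their promoters, the binding site of RFX transcription factors, made of an arm GTTNCC and a mirrored arm GGNAAC. RefSeq promoter windows of assembly GRCm38.p6, from 250 bases before to 50 bases after an annotated start of a gene, were found for 48 of the 53 genes. Some genes had several windows, and a gene was counted once if any of them matched. The letters GTTGCC stood on either strand in 9 of 20 transport genes (45.0%) and 11 of 28 axoneme genes (39.3%). Of the 15691 array genes with a window, 2175 (13.9%) held them. The stretches shown are from 4 transport genes and 4 axoneme genes whose match lies before the start that the window used. In the 4 axoneme genes that start and the match lie inside the gene's RefSeq span. The stretches are written 5' to 3' on the gene's strand and end at or before the start used. They hold GTTGCC or its reverse complement GGCAAC in capitals. They are Bbs7 at chr3:36613475-36613540 (reverse strand), Ift57 at chr16:49699204-49699269 (forward strand), Ift140 at chr17:25015947-25016012 (forward strand), Ift27 at chr15:78174082-78174120 (reverse strand), Ccdc113 at chr8:95534064-95534099 (forward strand), Dnah7a at chr1:53706949-53707014 (reverse strand), Spag6 at chr2:18698955-18699020 (forward strand) and Mcidas at chr13:112993643-112993708 (forward strand).
Bbs7: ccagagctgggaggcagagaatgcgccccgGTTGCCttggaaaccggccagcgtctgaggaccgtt
Ift57: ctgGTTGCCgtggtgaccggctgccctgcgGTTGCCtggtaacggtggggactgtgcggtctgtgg
Ift140: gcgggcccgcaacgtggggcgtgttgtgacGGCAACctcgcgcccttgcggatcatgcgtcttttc
Ift27: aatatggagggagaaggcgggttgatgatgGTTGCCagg
Ccdc113: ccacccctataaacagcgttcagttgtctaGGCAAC
Dnah7a: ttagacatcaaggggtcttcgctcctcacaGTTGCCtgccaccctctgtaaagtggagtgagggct
Spag6: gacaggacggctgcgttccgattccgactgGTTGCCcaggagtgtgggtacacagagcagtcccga
Mcidas: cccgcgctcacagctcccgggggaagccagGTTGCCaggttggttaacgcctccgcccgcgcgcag
Ift57 holds the letters at 2 places. In Bbs7, and at the place nearer the start in Ift57, the capitals open a full pair of arms, GTTNCC and GGNAAC with 0 to 3 bases between them, at 121 and 60 bases before the start. That pair occurred in 2 of 20 transport genes (10.0%), 0 of 28 axoneme genes and 0.95% of all genes with a window. The letters TGTTTAC, a forkhead-type motif, occurred on either strand in 0 of 20 transport genes, 2 of 28 axoneme genes (7.14%) and 3.47% of all genes with a window. CCCNNGGG, searched on both strands, was present in 3 of 20 transport genes, 8 of 28 axoneme genes (28.6%) and 18.0% of all genes with a window. These matches describe letters in the windows and not bound sites.

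Transport genes were measured well above background and 9 of the 30 axoneme genes were at background throughout. Background was taken as the median of 5222 negative control features, 4.98 to 5.59 log2 units over the 16 arrays. In all 16 arrays, 22 of 23 transport genes exceeded that median, the exception being the chaperonin-like Bbs12, which exceeded it in none. Of the axoneme genes, 17 of 30 exceeded it in all 16 arrays. The axonemal dynein heavy chains Dnah1, Dnah5, Dnah6, Dnah10 and Dnah17, the radial spoke gene Rsph6a, the central pair genes Spag16 and Spag17 and the multiciliation regulator Mcidas exceeded it in none. Dnah8, Spag6, Tekt2 and Tekt3 did so in 4, 13, 2 and 6 arrays. The stricter 95th percentile of the controls was passed in all 16 arrays by 19 transport and 10 axoneme genes. Signals of different genes come from different features, so they are not ranked against each other here.

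On the deposited scale most genes of both families had lower signals in the arrays titled GFP+. In vehicle pools, 10 of 23 transport genes and 9 of 30 axoneme genes were lower at an adjusted p under 0.05 (limma with the pool as a block), beside 13.6% of all genes lower, and 1 axoneme gene, Dnah8, was higher, beside 12.3% of all genes. In odor pools, 13 transport and 12 axoneme genes were lower, beside 14.7% of all genes, and Dnah8 alone was higher, beside 12.8%. The sign was negative for 50 of 53 genes in each treatment, the exceptions being Dnah8, Spag17 and Tekt2. Every array titled GFP+ lay below every array titled GFP- for 7 transport and 7 axoneme genes in vehicle pools, beside 13.6% of all genes. In odor pools this held for 9 and 8, beside 14.3%. The reverse held for 0 and 0 in vehicle pools, beside 11.2%, and for 0 and 1 in odor pools, beside 12%. The genes described array by array below were mostly chosen by small fraction p-values, so separation of their fractions partly follows from that choice. The median log2 difference of the transport genes was -0.35 in vehicle and -0.32 in odor pools, and that of the axoneme genes -0.35 and -0.37, where the median of all genes was -0.14 and -0.15. The counts of genes called moved with single pools, as did those over all genes. Without vehicle pool 1 the vehicle count of ciliary genes called in either direction went from 20 to 10, and lower calls over all genes from 2658 to 1623. Without odor pool 1, 2 or 3 the odor count went from 26 to 9, 17 or 8, and lower calls over all genes from 2860 to 1632, 2385 or 1655.

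The calls of the 2 treatments overlapped in 15 genes, 78.9% of the 19 lower calls in vehicle and 60.0% of the 25 in odor pools. The treatments share no array, but both were tested in the same fit with a common spread, so their calls are not independent. Over all genes the overlap was 1706, or 64.2% of the lower calls in vehicle and 59.7% of those in odor pools. Of the ciliary genes shared, 8 were transport genes (Bbs4, Bbs7, Ift122, Ift172, Ift43, Ift46, Ift74 and Ift81) and 7 axoneme genes (Ccdc113, Ccdc39, Dnah11, Dnah7a, Rsph4a, Spag6l and Tekt1). Bbs9, Dnah9, Ift22 and Spag6 were called lower in vehicle pools only, and Bbs10, Dnal1, Dnal4, Ift52, Ift57, Ift80, Nphp4, Rsph14, Rsph3a and Tekt4 in odor pools only, although the difference between treatments passed the test for none of the 53. The median difference of the transport genes was -0.34 with GTTGCC (9 genes) and -0.37 without it (11 genes) in vehicle pools and -0.32 and -0.28 in odor pools. In the axoneme genes the medians were -0.52 with (11 genes) and -0.27 without (17 genes) in vehicle pools, and -0.35 and -0.36 in odor pools. Both axoneme groups held genes that never exceeded the control median, with Dnah10, Mcidas and Spag16 among those carrying GTTGCC. The vehicle median of -0.52 was the value of Dnah10 itself.

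**Figure D1:**
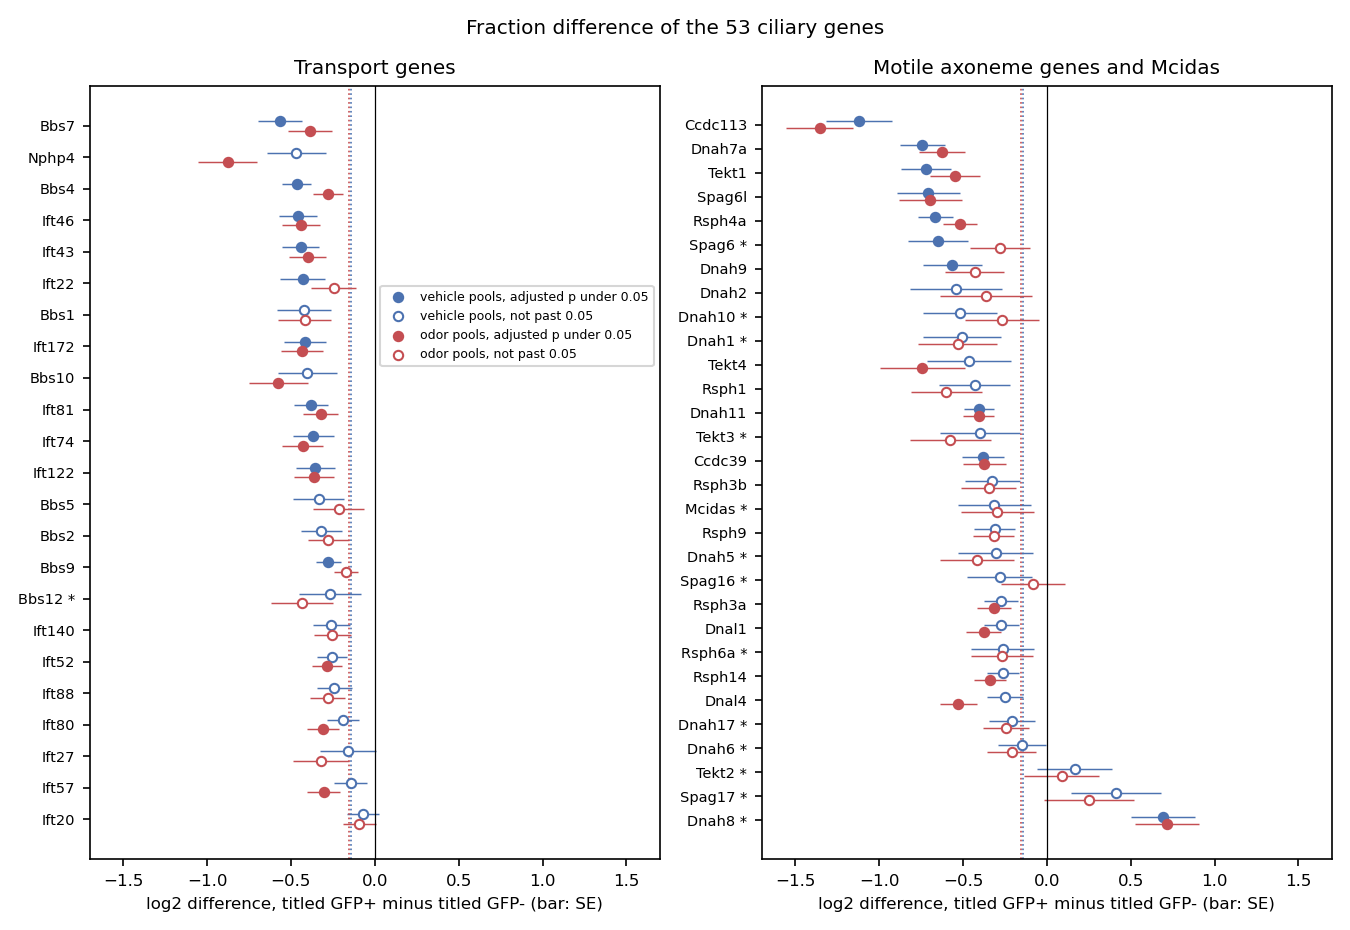
Log2 difference between fractions, titled GFP+ minus titled GFP-, of the 23 transport genes (left) and 30 axoneme genes (right), with blue points for vehicle and red for odor pools, bars of 1 SE from limma, filled points at an adjusted p under 0.05, dotted lines at the median of all genes and an asterisk at genes not above the control median in all 16 arrays. All 23 transport genes lie left of 0 in both treatments, and Ccdc113 lies farthest left at -1.12 and -1.36.

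Among the intraflagellar transport genes, 7 of 14 were lower in vehicle and 9 of 14 in odor pools, beside 13.6% and 14.7% of all genes. Their median differences were -0.31 and -0.32. Ift46, an IFT-B subunit, read 12.24, 12.29, 12.39 and 12.06 in vehicle pools 1 to 4 titled GFP- and 11.76, 11.75, 11.67 and 11.98 titled GFP+. In odor pools it read 12.07, 12.26, 12.17 and 12.28 against 11.67, 12.01, 11.59 and 11.76. The fractions did not overlap in either treatment, and the differences were -0.46 ± 0.11 (SE, adjusted p = 0.00902) and -0.44 ± 0.11 (adjusted p = 0.0107), or 1.37-fold and 1.36-fold. Ift43, an IFT-A subunit, gave 12.54, 12.47, 12.58 and 12.36 against 11.87, 12.29, 12.15 and 11.87 in vehicle pools, with no overlap, a difference of -0.44 ± 0.11 (adjusted p = 0.0106). Its odor arrays read 12.36, 12.38, 12.22 and 12.01 against 11.62, 12.02, 11.95 and 11.78 and overlapped narrowly between the fractions, with a difference of -0.40 ± 0.11 (adjusted p = 0.0169). Ift74 and Ift81, whose products form the tubulin-binding pair of IFT-B, were lower in both treatments, with differences of -0.37 and -0.38 in vehicle and -0.43 and -0.32 in odor pools. Ift172 and Ift122 were also lower in both.

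Ift20, which links the Golgi apparatus to ciliary traffic, had the difference nearest to 0 of its family. Its vehicle arrays read 14.20, 14.19, 13.78 and 14.08 titled GFP- and 13.87, 13.97, 14.04 and 14.09 titled GFP+. The odor arrays read 14.08, 14.34, 14.07 and 14.13 against 14.19, 14.12, 14.01 and 13.93. Both treatments overlapped, and the differences of -0.07 ± 0.10 (adjusted p = 0.623) and -0.09 ± 0.10 (adjusted p = 0.513) lay closer to 0 than the median of all genes. With each array centred on mature neuron genes they turned to 0.24 and 0.18, and with cyclic loess to 0.040 and 0.018. Ift88 and Ift140, a core IFT-B and a core IFT-A subunit, passed in neither treatment, with values of -0.24 and -0.26 in vehicle and -0.28 and -0.25 in odor pools. Ift27, a small GTPase of the train, had values of -0.16 and -0.32 and passed in neither.

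Of the 8 Bbs genes, 3 were lower in each treatment, beside 13.6% of all genes in vehicle and 14.7% in odor pools. Bbs7, a BBSome subunit, read 12.06, 11.96, 12.76 and 11.88 in vehicle pools titled GFP- and 11.45, 11.75, 11.70 and 11.49 titled GFP+. In odor pools it read 12.06, 12.14, 12.18 and 12.06 against 11.43, 11.92, 11.73 and 11.82. No array titled GFP+ reached any array titled GFP- in either treatment, with differences of -0.57 ± 0.13 (adjusted p = 0.00646) and -0.39 ± 0.13 (adjusted p = 0.0456). Bbs4, the subunit that joins the BBSome to centriolar satellites, read 14.52, 14.53, 14.71 and 14.52 against 13.92, 14.16, 14.18 and 14.16 in vehicle pools. These groups were separate, at -0.47 ± 0.09 (adjusted p = 0.00162). Its odor arrays, 14.33, 14.43, 14.47 and 14.37 against 13.97, 14.24, 13.92 and 14.34, overlapped, at -0.28 ± 0.09 (adjusted p = 0.0321).

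Bbs9, a further BBSome subunit, had vehicle signals of 14.92, 15.08, 15.01 and 14.90 titled GFP- and 14.66, 15.01, 14.71 and 14.42 titled GFP+. Its odor signals were 14.87, 14.81, 14.75 and 14.75 against 14.65, 14.66, 14.54 and 14.64. The vehicle difference of -0.28 ± 0.07 passed (adjusted p = 0.0151) although the groups overlapped, and the odor difference of -0.17 ± 0.07 did not (adjusted p = 0.105) although they were separate. Bbs10, a chaperonin-like protein needed for BBSome assembly, was lower in odor pools at -0.58 ± 0.18 (adjusted p = 0.0279) and had -0.40 ± 0.18 (adjusted p = 0.112) in vehicle pools. Bbs1, Bbs2, Bbs5 and Bbs12 passed in neither treatment, with values of -0.42, -0.32, -0.34 and -0.27 in vehicle and -0.42, -0.28, -0.22 and -0.43 in odor pools.

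Nphp4, a transition zone protein and the only nephrocystin measured, had the largest transport difference in odor pools. Its odor arrays titled GFP- read 10.52, 10.43, 10.59 and 9.85 and those titled GFP+ 9.20, 9.32, 9.76 and 9.61, without overlap. The difference was -0.88 ± 0.18 (adjusted p = 0.00229), or 1.84-fold. Vehicle arrays read 10.05, 9.95, 10.22 and 9.69 against 9.48, 9.38, 9.47 and 9.70, in which pool 4 showed no decrease, with a difference of -0.47 ± 0.18 (adjusted p = 0.07). The difference between the treatments, -0.41 ± 0.25, did not pass (adjusted p = 0.999), so the 2 contrasts were not shown to differ.

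**Figure D2:**
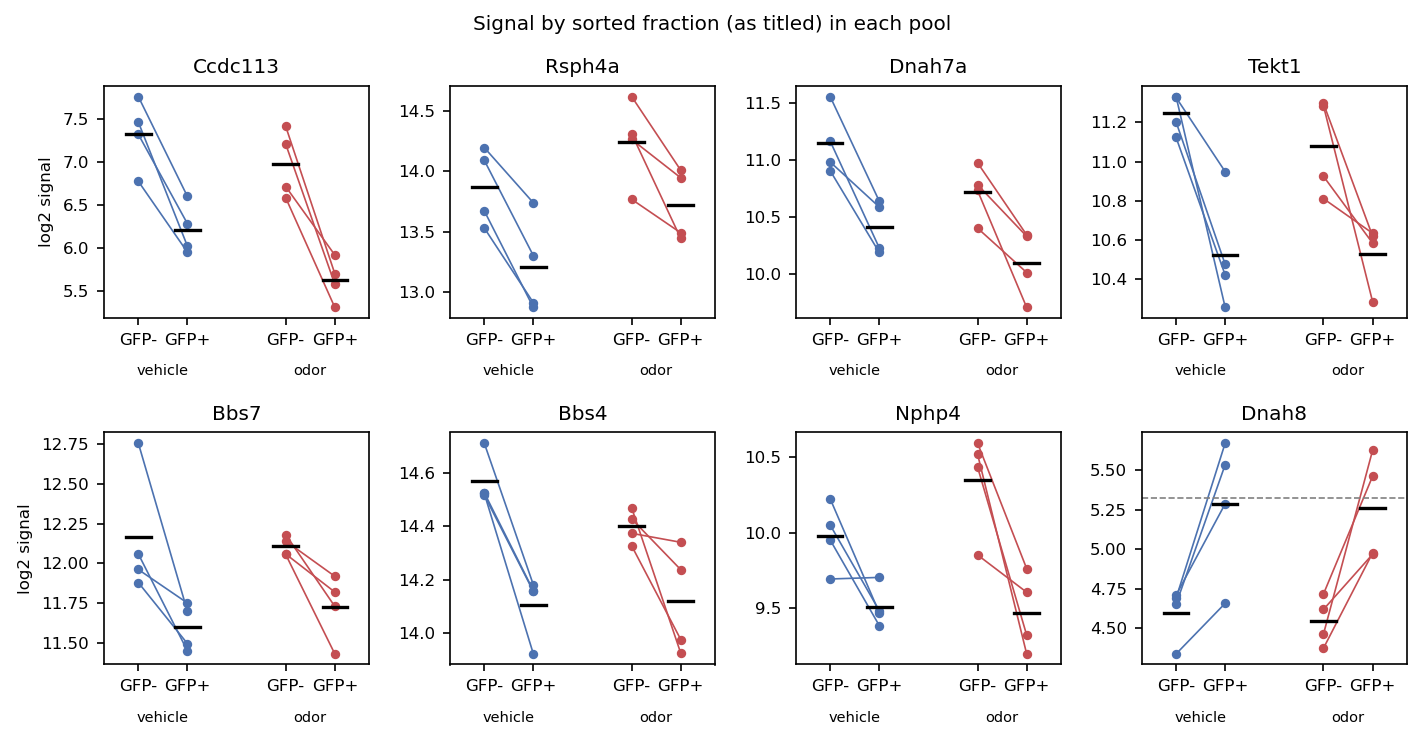
Log2 signal of 8 genes (vertical axis) in arrays titled GFP- and GFP+ (horizontal axis), blue for vehicle and red for odor pools; lines join the fractions of a pool, black bars are means of 4 arrays and the dashed line in the Dnah8 panel is the mean control median. The fractions of Ccdc113, Dnah7a, Tekt1 and Bbs7 do not overlap in either treatment, and only the means of Dnah8 run upward. Of all genes, 13.6% in vehicle and 14.3% in odor pools had every array titled GFP+ below every array titled GFP-.

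Ccdc113, a coiled-coil protein of cilia and centriolar satellites, showed the largest difference of all 53 genes. In vehicle pools it read 7.32, 7.76, 6.77 and 7.46 titled GFP- and 6.28, 6.60, 5.95 and 6.02 titled GFP+. Odor pools gave 7.21, 7.41, 6.58 and 6.71 against 5.58, 5.70, 5.31 and 5.92. Every array titled GFP+ lay below every array titled GFP- of its treatment, with differences of -1.12 ± 0.20 (adjusted p = 0.000926, 2.17-fold) and -1.36 ± 0.20 (adjusted p = 0.00017, 2.56-fold). It exceeded the control median in all 16 arrays but the 95th percentile in 0. Ccdc39, whose product is part of the ruler that sets the axonemal repeat for dynein arms and spokes, read 12.83, 12.63, 13.12 and 12.47 against 12.13, 12.44, 12.52 and 12.43 in vehicle and 13.04, 12.95, 13.33 and 12.68 against 12.61, 12.93, 12.66 and 12.30 in odor pools. Its fractions overlapped in both, at -0.38 ± 0.13 (adjusted p = 0.0418) and -0.37 ± 0.13 (adjusted p = 0.0441).

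Of the 10 axonemal dynein heavy chain genes, 3 were lower in vehicle and 2 in odor pools, beside 13.6% and 14.7% of all genes. Among the 10, 5 never exceeded the control median. Dnah7a, an inner arm heavy chain that belongs to a group of closely similar mouse genes, read 11.16, 10.98, 11.55 and 10.90 titled GFP- and 10.23, 10.58, 10.64 and 10.19 titled GFP+ in vehicle pools. The odor values were 10.73, 10.97, 10.78 and 10.40 against 9.70, 10.34, 10.33 and 10.01. The fractions were separate in both, at -0.74 ± 0.14 (adjusted p = 0.00123) and -0.63 ± 0.14 (adjusted p = 0.00384). Dnah11, an outer arm heavy chain, read 13.15, 12.93, 12.97 and 13.11 against 12.56, 12.55, 12.56 and 12.87 in vehicle and 13.12, 12.54, 13.11 and 12.63 against 12.54, 12.30, 12.64 and 12.29 in odor pools. The vehicle groups were separate and the odor groups overlapped, with -0.41 ± 0.09 in each (adjusted p = 0.0055 and 0.00492). Dnah9, another outer arm chain, was lower in vehicle pools at -0.56 ± 0.17 (adjusted p = 0.0308) and had -0.43 ± 0.17 (adjusted p = 0.0853) in odor pools. Dnah2 had -0.54 and -0.36 and passed in neither.

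Dnah8, a heavy chain best known from sperm, was the only gene called higher and was singled out after its values were seen. It read 4.65, 4.34, 4.69 and 4.71 titled GFP- against 5.54, 4.66, 5.67 and 5.29 titled GFP+ in vehicle pools, and 4.72, 4.37, 4.46 and 4.62 against 5.46, 4.98, 5.63 and 4.97 in odor pools. All 8 arrays titled GFP- were at or below the control median and 4 of the 8 titled GFP+ were above it, so the log2 differences of 0.69 ± 0.19 (adjusted p = 0.0175) and 0.72 ± 0.19 (adjusted p = 0.0138) are given without a fold. Without vehicle pool 1 or 3 the vehicle call was lost (adjusted p = 0.0801 and 0.0816), as was the odor call without odor pool 3 (adjusted p = 0.0877). Centring on housekeeping genes turned the differences to -0.31 and -0.35. The light chain gene Dnal1 read 11.79, 11.66, 11.63 and 11.76 against 11.47, 11.38, 11.59 and 11.31 in vehicle pools and 11.94, 11.95, 12.07 and 11.86 against 11.68, 11.35, 11.64 and 11.64 in odor pools. The fractions were separate in both, with -0.27 ± 0.11 (adjusted p = 0.0758) and -0.38 ± 0.11 (adjusted p = 0.0174). Dnal4 read 11.74, 11.97, 11.69 and 11.69 against 11.46, 11.73, 11.53 and 11.36 in vehicle pools, which overlapped, and 11.73, 11.64, 11.65 and 11.69 against 10.97, 11.40, 10.93 and 11.30 in odor pools, which did not. Its differences were -0.25 ± 0.11 (adjusted p = 0.114) and -0.53 ± 0.11 (adjusted p = 0.00282).

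Radial spokes link the outer doublets to the central pair. Rsph4a, a spoke head protein, was lower in all 8 pools. It read 14.09, 13.53, 14.20 and 13.67 against 13.30, 12.91, 13.74 and 12.87 in vehicle and 14.31, 14.26, 14.62 and 13.77 against 13.44, 13.95, 14.01 and 13.49 in odor pools. The groups overlapped in both treatments, and the pool-blocked differences were -0.67 ± 0.10 (adjusted p = 0.000328) and -0.52 ± 0.10 (adjusted p = 0.00215). Rsph14 read 12.91, 13.25, 12.70 and 12.92 against 12.43, 12.94, 12.60 and 12.78 in vehicle and 12.91, 13.12, 12.68 and 12.81 against 12.38, 12.81, 12.33 and 12.64 in odor pools. Both overlapped, at -0.26 ± 0.09 (adjusted p = 0.0602) and -0.34 ± 0.09 (adjusted p = 0.0172). Rsph3a passed in odor pools, at -0.32 ± 0.10 (adjusted p = 0.0331). Rsph1, Rsph3b, Rsph6a and Rsph9 passed in neither treatment, with values of -0.43, -0.32, -0.26 and -0.31 in vehicle and -0.60, -0.35, -0.27 and -0.32 in odor pools.

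Tektins are filaments inside the doublet microtubules. Tekt1 read 11.33, 11.33, 11.20 and 11.12 titled GFP- against 10.26, 10.95, 10.48 and 10.42 titled GFP+ in vehicle pools, and 11.28, 10.81, 11.30 and 10.92 against 10.29, 10.63, 10.62 and 10.58 in odor pools. Neither treatment showed overlap, and the differences were -0.72 ± 0.15 (adjusted p = 0.0029, 1.65-fold) and -0.55 ± 0.15 (adjusted p = 0.0149, 1.46-fold). Tekt4 read 7.56, 7.37, 7.55 and 7.20 against 6.86, 7.11, 7.28 and 6.56 in vehicle and 8.06, 7.69, 7.57 and 7.35 against 6.33, 6.79, 7.02 and 7.55 in odor pools. Its groups overlapped, with -0.46 ± 0.25 (adjusted p = 0.196) and -0.74 ± 0.25 (adjusted p = 0.0441), and odor pool 4 ran the other way. Tekt2 and Tekt3 passed in neither.

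The Spag genes encode central pair proteins of the motile axoneme. Spag6l read 9.15, 9.67, 9.58 and 9.08 against 8.65, 8.60, 8.31 and 9.09 in vehicle pools, with overlap in pool 4, and 9.17, 9.64, 9.19 and 9.14 against 8.30, 8.99, 8.61 and 8.46 in odor pools, without overlap. Its differences were -0.71 ± 0.19 (adjusted p = 0.0147) and -0.70 ± 0.19 (adjusted p = 0.0152). Spag6, its close copy, read 5.50, 5.76, 6.10 and 5.85 against 4.81, 5.07, 5.30 and 5.45 in vehicle and 5.75, 6.13, 5.70 and 5.43 against 5.44, 5.48, 5.56 and 5.41 in odor pools. The differences were -0.65 ± 0.18 (adjusted p = 0.0168) and -0.28 ± 0.18 (adjusted p = 0.262), near background, and features of such copies may share signal, as may those of Rsph3a and Rsph3b and of the Dnah7 genes. Mcidas, which starts the multiciliated cell program, read 3.65, 3.37, 3.59 and 3.39 against 3.78, 2.94, 3.14 and 2.88 in vehicle and 4.06, 3.43, 3.87 and 3.21 against 3.16, 3.71, 3.03 and 3.48 in odor pools. All 16 values lay below the control median, and no fold is given.

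Over all 53 genes, the transport and axoneme groups had similar fraction differences, although 9 axoneme genes were at background throughout. Among genes above the control median in all 16 arrays, the median differences were -0.36 for transport and -0.43 for axoneme genes in vehicle pools. In odor pools they were -0.32 and -0.43. With the control 95th percentile instead, they were -0.35 and -0.35 in vehicle and -0.31 and -0.39 in odor pools. The mean log2 signal of the 23 transport genes was 11.93 ± 0.06 (SD, n = 4) titled GFP- and 11.60 ± 0.08 titled GFP+ in vehicle pools, and 11.93 ± 0.10 and 11.58 ± 0.10 in odor pools. The mean of the 30 axoneme genes was 7.83 ± 0.06 and 7.47 ± 0.07 in vehicle and 7.80 ± 0.07 and 7.43 ± 0.09 in odor pools. Within each array the transport mean stood above the axoneme mean by 4.04 to 4.19 log2 units, a gap that is not a ratio of abundances because the features differ. That gap was 4.10 ± 0.06 titled GFP- and 4.12 ± 0.06 titled GFP+ in vehicle pools and 4.14 ± 0.04 and 4.15 ± 0.03 in odor pools. The gap titled GFP+ minus that titled GFP- was 0.0038, 0.044, 0.0095 and 0.038 in vehicle pools 1 to 4, all of one sign, and 0.0015, 0.043, -0.065 and 0.075 in odor pools, and it was not tested. Pool by pool, the median difference between fractions ran from -0.58 to -0.19 for the transport genes and from -0.65 to -0.24 for the axoneme genes, and both were largest in odor pool 1. The transport genes varied less between pools of a group, with a median within-group SD of 0.17 against 0.27 for the axoneme genes and 0.26 for all genes. These sets were not matched for signal, and the axoneme genes included those at background.

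**Figure D3:**
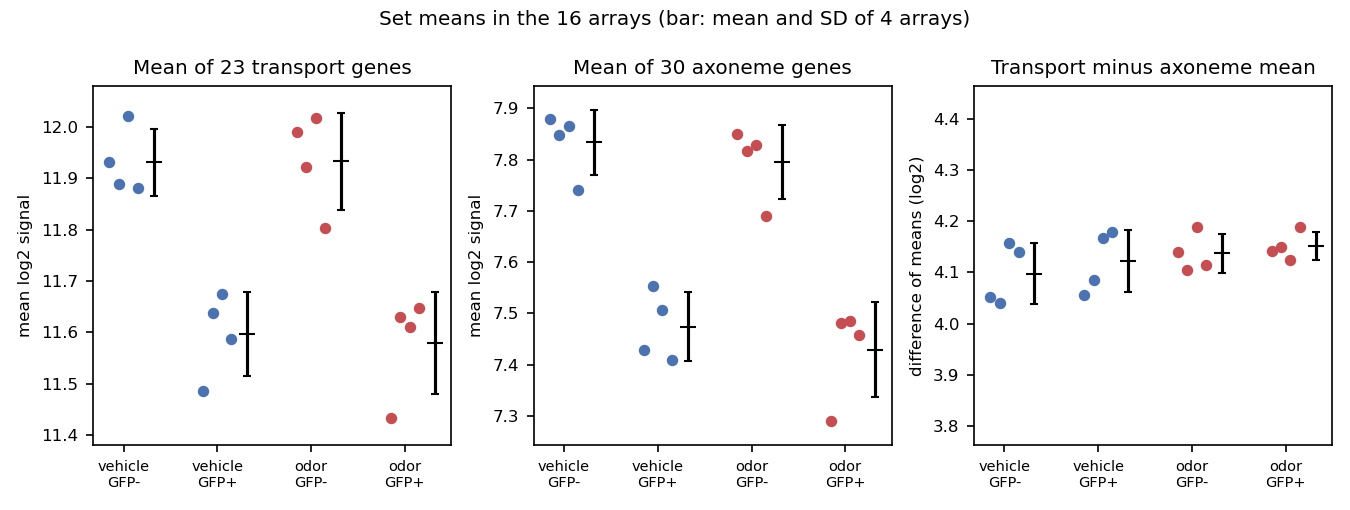
Mean log2 signal of the 23 transport genes and the 30 axoneme genes and the gap between both means (vertical axes) in each of the 16 arrays by group (horizontal axis). Both means are lower in arrays titled GFP+, and the gap stays between 4.04 and 4.19.

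Relative to the transport genes, 4 of 30 axoneme genes were lower in vehicle and 1 in odor pools, beside 3.36% and 3.62% of all genes. After each array was centred on the mean of its transport genes, Ccdc113 remained lower at -0.78 ± 0.20 in vehicle (adjusted p = 0.00961) and -1.0 ± 0.20 in odor pools (adjusted p = 0.00175). Dnah7a, Rsph4a and Tekt1 were lower in vehicle pools, at -0.41, -0.33 and -0.38 (adjusted p = 0.0251, 0.0157 and 0.0396). Nphp4, itself a transport gene and so part of the centre, was lower in odor pools at -0.52 ± 0.16 (adjusted p = 0.027). Dnah8 was higher in both, at 1.03 and 1.07, beside 22.6% and 23.9% of all genes. Centring on 16 mature olfactory neuron genes, a list whose own median difference was -0.32 and -0.24, called 5 of the 53 in vehicle pools (Ccdc113, Dnah7a, Rsph4a and Tekt1 lower, beside 3.62% of all genes, and Dnah8 higher, beside 21.3%) and 3 in odor pools (Ccdc113 and Nphp4 lower, beside 4.34%, and Dnah8 higher, beside 18.8%).

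The number of ciliary genes called changed with the scaling. The deposited arrays titled GFP+ had higher medians over all genes, 6.95 to 7.13 against 6.62 to 6.70, although in single pools 58.5% to 63.3% of all genes were lower there. Centring on the array median called 50 genes lower in each treatment, beside 64.3% and 66.2% of all genes, and 0 higher, beside 9.32% and 9.75%. Centring on 11 housekeeping genes called 52 lower in each, beside 87.4% and 87.8%, and 0 higher, beside 5.78% and 5.94%, but 5 and 6 of those housekeeping genes were themselves called higher in arrays titled GFP+, with Rplp0 at 2.16 and B2m at 4.54 in vehicle pools. Cyclic loess, which fits a curve between arrays, called 8 lower in vehicle pools, beside 7.23% of all genes, and 6 in odor pools, beside 7.15%, and Dnah8 higher in both, beside 14.3% and 15%. Ccdc113, Dnah11, Dnah7a and Rsph4a were lower in both treatments after loess, as were Bbs4, Bbs7, Spag6 and Tekt1 in vehicle and Dnal4 and Nphp4 in odor pools. Ift genes passed on the deposited scale and with median or housekeeping centring, and not after loess or with neuron or transport centring. The median of all genes was -0.51 in vehicle and -0.53 in odor pools with median centring, -1.15 and -1.22 with housekeeping genes, -0.02 in both with loess and 0.16 and 0.12 with neuron genes, so the smaller differences reported here are relative to the deposited scale. Ccdc113 was lower in both treatments on every scale, from -0.78 to -2.12 in vehicle and from -1.0 to -2.43 in odor pools.

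**Figure D4:**
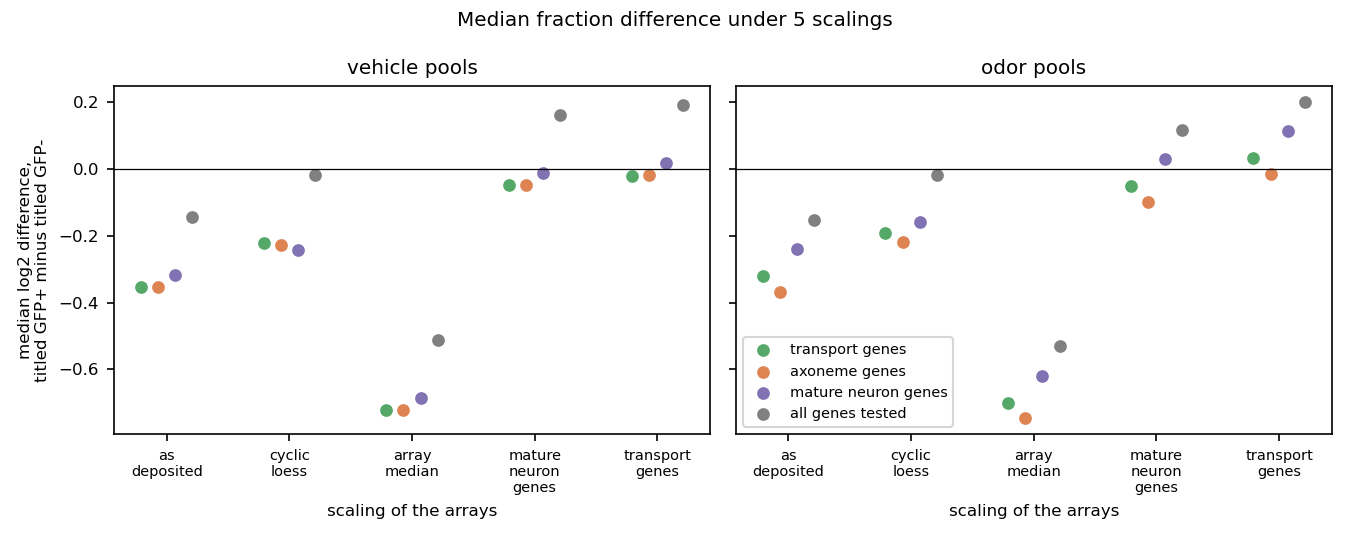
Median log2 difference, titled GFP+ minus titled GFP- (vertical axis), of transport, axoneme, mature neuron and all genes under 5 scalings of the arrays (horizontal axis) in vehicle (left) and odor pools (right). Centring shifts all genes of an array alike, and the transport and axoneme medians lie near 0 when the arrays are centred on the neuron or transport genes.

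No ciliary gene was called in a comparison of whiskey lactone with vehicle. In arrays titled GFP+ the odor minus vehicle differences of the 53 genes ran from -0.59 to 0.52, and 0 passed (limma, 4 at an unadjusted p under 0.05), beside 0.00513% of all genes. The smallest p-values there belonged to Dnal4 at -0.37 ± 0.12 (adjusted p = 0.97), Rsph4a at 0.52 ± 0.20 and Ccdc113 at -0.59 ± 0.24 (adjusted p = 1 for both). In arrays titled GFP- the differences ran from -0.43 to 0.37, and 0 passed (limma, 3 at an unadjusted p under 0.05), beside 0% of all genes. Dnah7a at -0.43 ± 0.18, Rsph9 at -0.33 ± 0.14 and Dnal1 at 0.24 ± 0.11 had the smallest p-values (adjusted p = 0.803, 0.804 and 0.837). For the fraction difference, odor minus vehicle, the range was -0.41 to 0.37 and 0 genes passed (limma, 0 at an unadjusted p under 0.05), beside 0.00513% of all genes. Dnal4, Nphp4 and Bbs4 led it with -0.28 ± 0.15, -0.41 ± 0.25 and 0.19 ± 0.13 (adjusted p = 0.999 for each).

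Ciliary genes outside the symbol patterns were counted the same way, beside 13.6% of all genes lower in vehicle and 14.7% in odor pools. Of 9 motor genes of intraflagellar transport, 6 were lower in vehicle and 8 in odor pools, with medians of -0.44 in both, among them Dync2h1, the retrograde dynein heavy chain, at -0.51 and -0.53, and Kif3b, a kinesin-2 motor, at -0.37 and -0.33. Of 9 further intraflagellar transport genes with other symbols, 4 and 6 were lower, led by Ttc30b at -0.63 and -0.59. Of 10 further BBSome-related genes, 4 and 5 were lower, among them Ttc8 at -0.48 and -0.55. Of 18 transition zone genes, 0 passed in vehicle pools (limma, 6 at an unadjusted p under 0.05) and 5 were lower in odor pools, with Cc2d2a at -0.54. Of 12 genes for dynein arm assembly, 5 and 7 were lower, with Dnaaf1 at -0.74 and -0.69. Of 23 other motile cilium genes, 10 and 9 were lower, among them Ropn1l at -0.87 and -0.54 and Enkur at -0.48 and -0.54. Of 12 genes of sensory cilia, 6 were lower in each. The lists share genes, so their counts are not independent. Sntn, Ccdc153 and Cdhr3 are both motile cilium genes here and ciliated cell markers below. The sensory cilia list shares genes with the mature neuron list.

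The 16 genes of multiciliation and its RFX regulators were mixed, with 4 lower and 3 higher in vehicle pools, beside 13.6% and 12.3% of all genes, and 4 lower and 2 higher in odor pools, beside 14.7% and 12.8%. The RFX factor gene Rfx4 was lower at -1.35 and -1.58, Deup1, which makes deuterosomes, at -1.33 and -1.68, and Rfx2 at -0.48 and -0.59. Myb, which also acts in blood progenitors, was higher at 5.49 and 5.64.

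Markers of other cell types moved between the same fractions, and their part in the ciliary differences was not tested. In bulk arrays fewer cells of a type and less RNA per cell cannot be told apart. Over all genes, 13.6% were lower and 12.3% higher in vehicle pools, and 14.7% lower and 12.8% higher in odor pools. Of 13 measured markers of respiratory-type ciliated cells, 3 were lower in each treatment, with medians of -0.32 and -0.40. Their summed level, the log2 of summed linear signals, was 16.24 to 16.76 titled GFP- and 15.97 to 16.28 titled GFP+ in vehicle pools. In odor pools it was 15.998 to 16.20 against 15.79 to 16.004. The brightest markers weigh most in such a sum. Of these 13 markers, Ccdc153, Cdhr3 and Ccdc78 were at or below the control median in all 16 arrays and Sntn in 15. Each of the other measured markers exceeded it in some or all arrays of every group. All 8 neutrophil genes were higher titled GFP+ in both treatments, with a summed level of 18.59 to 19.25 against 9.90 to 11.45 in vehicle and 18.10 to 19.69 against 9.67 to 11.60 in odor pools. All 7 microvillar cell genes and 7 of 8 sustentacular cell genes were higher titled GFP+ in both treatments, as were 6 macrophage genes of 6 in vehicle and 5 in odor pools. Of 4 measured olfactory progenitor genes, 3 were higher titled GFP+ in each treatment. Of 9 measured immature neuron genes, 4 were higher and 1 lower in each. Of the 16 mature neuron genes, 9 and 8 were lower titled GFP+.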

How the data were processed

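The deposited values are log2 signals in 1 table for all 16 arrays, which the authors produced in Affymetrix Expression Console according to the submitters' processing notes. Version, normalization and background correction are not stated in the labels used here, and the log2 scale was read from the values. Biotinylated cRNA came from 50 to 100 ng of total RNA, per the labels' protocols. Precision is limited by the small number of arrays. Of 28846 features, 19572 had 1 gene symbol, 0 several and 9274 none, 5222 of the last being negative controls, and the feature with the highest mean was kept for each of 19505 genes. All 53 ciliary genes matched a RefSeq gene table by gene number. Column values not tied to a sample numbered 0.

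Fractions were compared with limma 3.58.1 in R 4.3.3 (lmFit, eBayes with a variance trend) with the pool as a block in a fit of all 16 arrays, and treatments by group means, pools entering as a random block (correlation 0.164). Tests were two-sided, adjusted by Benjamini-Hochberg over all genes, with a threshold of 0.05, and the scripts were tested on simulated data. Replicates were separate pools of mice. Deviations from the group means correlated at 0.116 to 0.341 between the fractions of a pool. Same-numbered pools of both treatments correlated at 0.198 to 0.279 in arrays titled GFP- and at 0.0787 to 0.410 in arrays titled GFP+. Blocking on replicate number called 0 of the 53 genes for odor in either fraction, as did the fit without this block.

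The ciliary genes, the other gene lists and the alternatives were chosen with earlier results of these data known. Array values are given for the 2 genes of each family with the smallest mean of both raw fraction p-values, the gene with the highest mean signal of each family, Ccdc113, Mcidas and, outside this rule, Dnah8. Other lists name up to 4 genes past the threshold. Alternatives were other scalings, other blocks, no variance trend, no dim genes (mean signal under the 30th percentile), averaging of a gene's features and the omission of each pool.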

Additional observations from a re-analysis of the deposited data

Results flagged for a closer look

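Of the 21 genes described array by array, 84 groups of 4 arrays were examined for a single array far from the other 3, of which chance flags about 1 in 20, and 8 were flagged. In Bbs4, vehicle pool 3 titled GFP- read 14.71 against 14.52 to 14.53 in the others, and vehicle pool 1 titled GFP+ read 13.92 against 14.16 to 14.18. In Bbs9, odor pool 3 titled GFP+ read 14.54 against 14.64 to 14.66. Dnah11 in vehicle pool 4 titled GFP+ read 12.87 against 12.55 to 12.56. Dnah8 in vehicle pool 2 titled GFP- read 4.34 against 4.65 to 4.71. Dnal1 in odor pool 2 titled GFP+ read 11.35 against 11.64 to 11.68. Spag6l in odor pool 2 titled GFP- read 9.64 against 9.14 to 9.19. Tekt1 in odor pool 1 titled GFP+ read 10.29 against 10.58 to 10.63. The cause was not tested.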

How the results depend on the processing

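Counts of ciliary genes called in either direction were 20 in vehicle and 26 in odor pools on the deposited scale. Centring on the array median gave 50 and 50, on housekeeping genes 52 and 52, cyclic loess 9 and 7, centring on mature neuron genes 5 and 3, and centring on the transport genes, chosen after seeing the data, 5 and 3. Without the replicate block that pairs the fractions of a pool, the odor count was 15, as it was without a variance trend, and the vehicle count stayed within 1.5 times at 15 and 14. Leaving out each pool gave 10 to 20 in vehicle and 8 to 27 in odor pools, the lowest without vehicle pool 1 and without odor pool 3. The transport median was -0.35 in vehicle and -0.32 in odor pools. It was -0.72 and -0.70 with median centring, -1.36 and -1.39 with housekeeping genes, -0.048 and -0.052 with neuron genes, -0.22 and -0.19 with loess, and -0.019 and 0.033 with transport genes, the last a reversal that follows from centring these genes on themselves. The axoneme median, -0.35 and -0.37, was -0.72 and -0.75, -1.35 and -1.44, -0.046 and -0.10, -0.23 and -0.22 with loess, and -0.018 and -0.015 under the same settings. Of 910 values of named genes under alternatives, 739 kept their sign and side of the threshold, 119 no longer passed, 28 newly passed and 24 changed sign. With neuron genes, the vehicle values of Bbs9, Dnal1, Dnal4, Ift20 and Rsph14 turned to 0.030, 0.034, 0.057, 0.24 and 0.047, and the odor values of Bbs9 and Ift20 to 0.096 and 0.18. With transport genes, the vehicle values of Bbs9, Dnal1, Dnal4, Ift20, Mcidas and Rsph14 turned to 0.058, 0.062, 0.085, 0.26, 0.021 and 0.075, and the odor values of Bbs4, Bbs9, Ift20, Mcidas, Rsph14 and Spag6 to 0.072, 0.18, 0.26, 0.056, 0.014 and 0.073. Ift20 turned to 0.040 and 0.018 with loess, and leaving out each pool gave -0.18 to 0.016 in vehicle pools, the latter without vehicle pool 1. Dnah8 turned to -0.31 and -0.35 with housekeeping genes. Of these, Bbs9 in vehicle, Bbs4 and Rsph14 in odor pools and Dnah8 in both had passed on the deposited scale. The counts of 0 for odor and for the difference between treatments stayed at 0 under every alternative run for them. The cause of these shifts was not tested.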
